A study of Drosophila melanogaster with 6 samples.

Results

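The 30 genes described here encode neuropeptides and peptide hormones other than the insulin-like peptides, in the brain of Drosophila melanogaster larvae of the 3rd instar with RNAi against DMAP1. They were chosen by gene symbol and not by any measured value, although earlier results of these data were known. All 30 were found among the 17490 gene rows of the deposited count table. The study set larval brains in which elav-Gal4 drove knockdown of the chromatin remodelling factor DMAP1 beside wild-type brains. The 6 labelled samples used here share 1 genotype, DMAP1 RNAi, and 1 tissue, and no wild-type library was analysed here, so no effect of the knockdown is given. elav-Gal4 drives the RNAi in neurons, the cells that make most of these peptides, while the RNA was taken from whole brains that also hold glia. The columns of the table fall by name into 3 libraries of DMAP1RNAi63666 and 3 libraries of DMAP1RNAi103734. The labels do not say what these column names stand for and do not tie a column to 1 labelled sample. They also do not say whether the libraries came from separate animals, so every p-value measures only the spread between these libraries, which may be technical.

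A neuropeptide is cut from a larger precursor protein in the secretory pathway, packed into dense-core vesicles and released from neurons or neurosecretory cells to act, mostly through G protein-coupled receptors, on nearby cells or at a distance as a hormone. In the larval nervous system many of these genes are expressed in small, fixed sets of neurons. Their products set moulting behaviour, water and salt balance, feeding and growth, muscle contraction, and daily and sleep rhythms. Levels are given in TPM, which scale a count for gene length and for library size and so allow levels of different genes to be compared.

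The libraries held between 31518485 and 37236953 counts, with 12855 to 13181 genes detected. DMAP1 itself (FBgn0034537) had 10.8, 12.2 and 11.9 TPM in the DMAP1RNAi63666 libraries and 18.6, 19.7 and 16.96 TPM in the DMAP1RNAi103734 libraries (log2 fold change -0.62, SE 0.12, edgeR adjusted p = 0.0453). The call was lost under limma-voom (adjusted p = 0.0513), without TMM scaling (0.0549) and on leaving out any library other than library 2 of DMAP1RNAi63666 (0.0774 to 0.175). No wild-type library was analysed here, so this difference is not the size of a knockdown. Over the 500 genes of highest variance, principal component 1 carried 52.8% of the variance and separated the column-name series. Mitochondrially encoded genes took 10.9, 8.85 and 8.18% of counts in the DMAP1RNAi63666 libraries, against 6.98, 6.88 and 7.1% in the DMAP1RNAi103734 libraries. The tissue label was checked against marker genes. All 6 neuronal and all 6 glial markers were detected in every library, and so were the 4 Hox genes Antp, Ubx, abd-A and Abd-B, which mark the ventral nerve cord. Of the 7 gut markers, Muc68D, Mur29B, alphaTry, betaTry and Amy-p stayed under 1 TPM in every library, Jon65Aiii had 1.16 to 9.22 TPM and LManII had 77.1 to 125 TPM. Ring gland, fat body and muscle markers were also present.

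The neuropeptide genes were abundant as a group, and within a library the highest of them exceeded the lowest 985- to 2449-fold. Their median of the mean level was 124.6 TPM, against 30.44 TPM over the 10211 genes that passed the filter on low counts, and 26 of the 30 lay above the median of those genes. Of the 30 genes, 19 averaged over 100 TPM, 9 lay between 10 and 100 TPM, and RYa and amn lay under 10 TPM. The 30 genes together took 4875, 5088 and 4526 TPM in the DMAP1RNAi63666 libraries and 4675, 4100 and 4889 TPM in the DMAP1RNAi103734 libraries. These sums overlapped between the series, and the lowest belonged to library 2 of DMAP1RNAi103734.

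A few precursors supplied much of this total. Proc, which encodes the muscle-stimulating peptide proctolin, ranked first among the 30 in each of the 6 libraries and made up 12.4 to 14.6% of their summed TPM. The 5 most abundant members of a library made up 38.8 to 41.6%, and 7 or 8 members were enough to reach 50%. By mean TPM over the 6 libraries, Proc was followed by Ms (336.4 ± 32.8 TPM, SD, n = 6), Nplp1 (335.8 ± 33.0 TPM), Dh31 (294 ± 38.0 TPM), NPF (253 ± 37.9 TPM) and Hug (252 ± 27.9 TPM). Ms ranked between 2 and 5 and Nplp1 between 2 and 4 in single libraries, so these neighbours were not separated beyond their spread. The next genes, Dsk, Dh44, Capa, sNPF, Crz and Pdf, averaged 196 to 227 TPM and changed places from library to library, with sNPF ranking anywhere between 5 and 13. Eh and Mip, by contrast, kept nearly the same place in every library, Eh at rank 15 or 16 and Mip between 16 and 18. At the low end Ptth and CCHa1 shared ranks 27 and 28, and RYa and amn shared ranks 29 and 30.

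**Figure D1:**
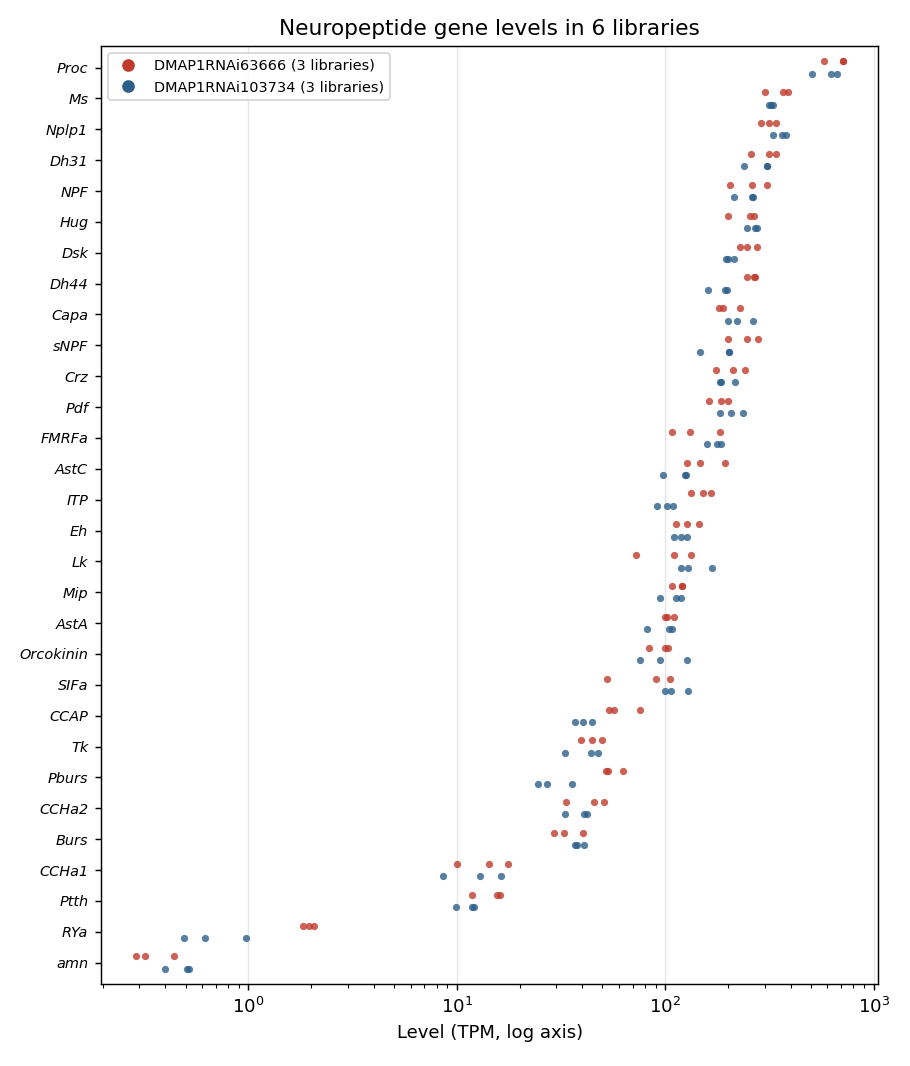
Level of each of the 30 neuropeptide genes in TPM (log axis), ordered by mean, with 1 point per library, DMAP1RNAi63666 in red above DMAP1RNAi103734 in blue. Most genes lie above 100 TPM, Proc lies above all others, RYa and amn lie near or under 2 TPM, and the points of Pburs, CCAP, ITP, Dh44, Dsk, AstC and RYa separate by series.

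Between the column-name series, 1 of the 30 neuropeptide genes differed past the threshold of adjusted p 0.05 in edgeR's quasi-likelihood test. This was Pburs, which encodes a subunit of the cuticle-hardening hormone bursicon and was 1.97-fold higher in DMAP1RNAi63666. Over all 10211 genes tested 1.55% were called, 0.872% higher and 0.676% lower. No member was called lower. For 8 members, namely Dh44, AstC, CCAP, Pburs, Ptth, ITP, Dsk and RYa, the normalised levels (log2 CPM, counts scaled to the library total, with TMM factors) of all DMAP1RNAi63666 libraries lay above those of all DMAP1RNAi103734 libraries, and for 0 members below. The same separation held for 17.0% of all genes in the higher and 16.5% in the lower direction. Unadjusted p-values under 0.05 were found for 9 members, all higher in DMAP1RNAi63666, against 24.6% of all genes tested. The fitted difference was above 0 for 20 members and below 0 for 10. The median log2 fold change was 0.14 over the members and 0.0 over all genes tested, of which 50.1% lay above 0. RYa passed the filter on low counts only through the DMAP1RNAi63666 libraries, so these summaries include 1 gene that had to be higher there. For 26 members the 95% interval excluded a change of 2-fold in either direction, the other 4 being Pburs, CCAP, RYa and amn.

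**Figure D2:**
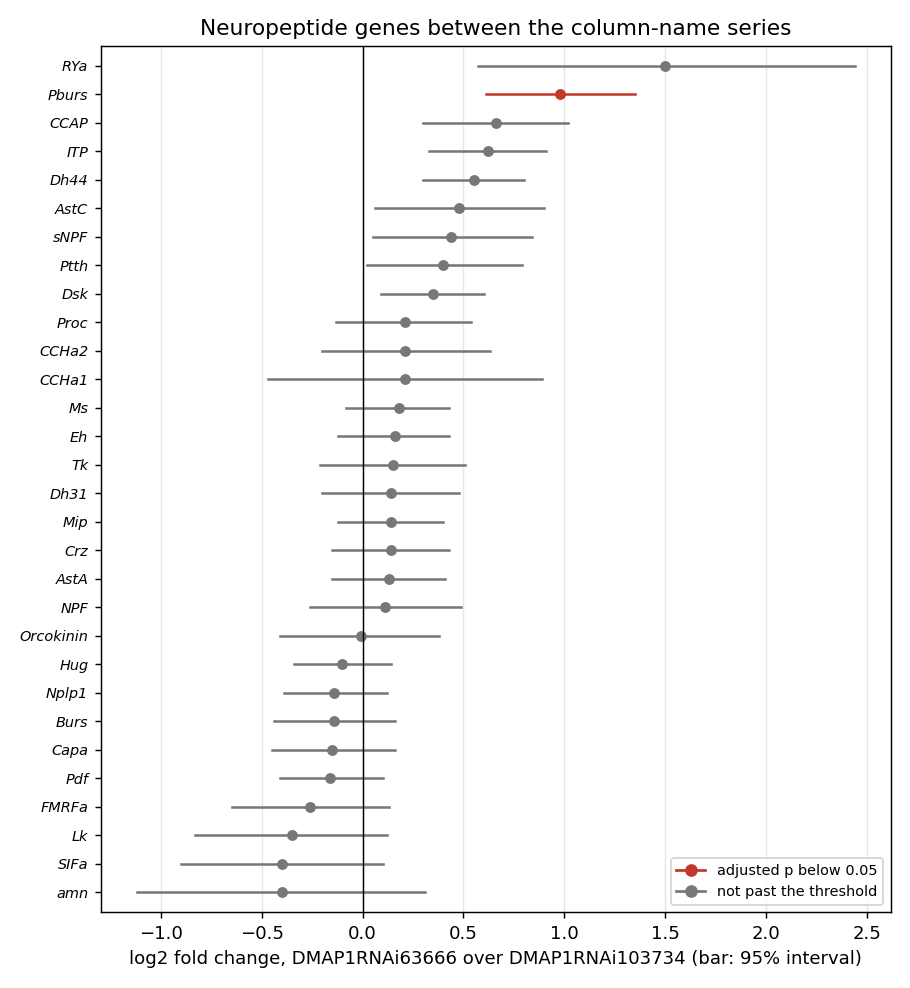
Log2 fold change of each neuropeptide gene, DMAP1RNAi63666 over DMAP1RNAi103734, from edgeR (points) with its 95% interval (bars), ordered by size. Pburs, in red, is the only member past the adjusted p threshold of 0.05. Its interval runs from 0.61 to 1.35, while RYa has the largest estimate and the widest interval.

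Moulting behaviour is driven by eclosion hormone, CCAP and bursicon, which are released in sequence at ecdysis. Bursicon, which hardens and darkens the new cuticle, is a heterodimer of the proteins encoded by Burs and Pburs. Pburs (FBgn0264810, chromosome 2L, 14416729 to 14417331, minus strand) had 52.1, 53.3 and 62.4 TPM in the DMAP1RNAi63666 libraries, against 27.1, 24.4 and 35.8 TPM in the DMAP1RNAi103734 libraries. Every DMAP1RNAi63666 library lay above every DMAP1RNAi103734 library. The raw counts behind these levels were 371, 437 and 536 in DMAP1RNAi63666 and 217, 203 and 287 in DMAP1RNAi103734. The means were 55.9 ± 5.65 TPM in DMAP1RNAi63666 and 29.1 ± 5.95 TPM in DMAP1RNAi103734 (SD, n = 3 each), with a log2 fold change of 0.98 (SE 0.16, 95% interval 0.61 to 1.35, edgeR adjusted p = 0.025). The call was lost without library 1 of DMAP1RNAi63666 (adjusted p = 0.0587), library 3 of DMAP1RNAi63666 (0.0901), library 1 of DMAP1RNAi103734 (0.123) or library 2 of DMAP1RNAi103734 (0.0923), and without TMM scaling (0.053), while the log2 fold change stayed between 0.88 and 1.16. In bulk RNA, fewer cells of a type and less RNA per cell cannot be told apart, here and for every gene below.

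Burs (FBgn0038901, chromosome 3R, 21769518 to 21770279, plus strand), the partner subunit, had 29.3, 32.5 and 40.3 TPM in the DMAP1RNAi63666 libraries, against 37.1, 37.6 and 40.7 TPM in the DMAP1RNAi103734 libraries. The series overlapped, with library 3 of each near 40 TPM and the lowest value in library 1 of DMAP1RNAi63666. Its log2 fold change was -0.14 (95% interval -0.44 to 0.16, edgeR adjusted p = 0.527), an interval that lies wholly below that of Pburs. The ratio of Burs to Pburs in TPM was 0.56, 0.61 and 0.65 in DMAP1RNAi63666 and 1.37, 1.54 and 1.14 in DMAP1RNAi103734. Thus the message of Pburs exceeded that of Burs in all DMAP1RNAi63666 libraries, and the message of Burs exceeded that of Pburs in all DMAP1RNAi103734 libraries. This ratio was looked at after the values of both genes were seen and is given as a description.

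CCAP (FBgn0039007, chromosome 3R, 22700582 to 22702084, minus strand), which encodes crustacean cardioactive peptide and is made by neurons many of which also make bursicon, had 75.5, 53.9 and 56.9 TPM in DMAP1RNAi63666 and 44.7, 40.4 and 37.0 TPM in DMAP1RNAi103734. The series did not overlap, and library 1 of DMAP1RNAi63666 stood highest by a wide margin. Its log2 fold change of 0.66 (SE 0.16) missed the threshold, at an edgeR adjusted p of 0.0885. The gene passed it under DESeq2, which called 959 genes in all, against 158 in edgeR's test. CCAP exceeded Burs 2.58-, 1.66- and 1.41-fold in the DMAP1RNAi63666 libraries and 1.2-, 1.07- and 0.91-fold in the DMAP1RNAi103734 libraries. Eh, which encodes eclosion hormone, a trigger of ecdysis, had 128, 145 and 113 TPM in DMAP1RNAi63666 and 119, 110.2 and 128 TPM in DMAP1RNAi103734. These values overlapped, with a log2 fold change of 0.16 (95% interval -0.12 to 0.43). The bursicon receptor gene rk had 6.03, 5.74 and 5.61 TPM in DMAP1RNAi63666 and 8.23, 6.71 and 7.59 TPM in DMAP1RNAi103734, values that did not overlap (log2 fold change -0.33, edgeR adjusted p = 0.149). The CCAP receptor gene CCAP-R averaged 7.24 TPM in either series. ETH, the ecdysis-triggering hormone of the Inka cells, whose release starts the sequence, stood at 22.6, 27.7 and 28.1 TPM in DMAP1RNAi63666, against 30.6, 31.0 and 32.2 TPM in DMAP1RNAi103734.

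**Figure D3:**
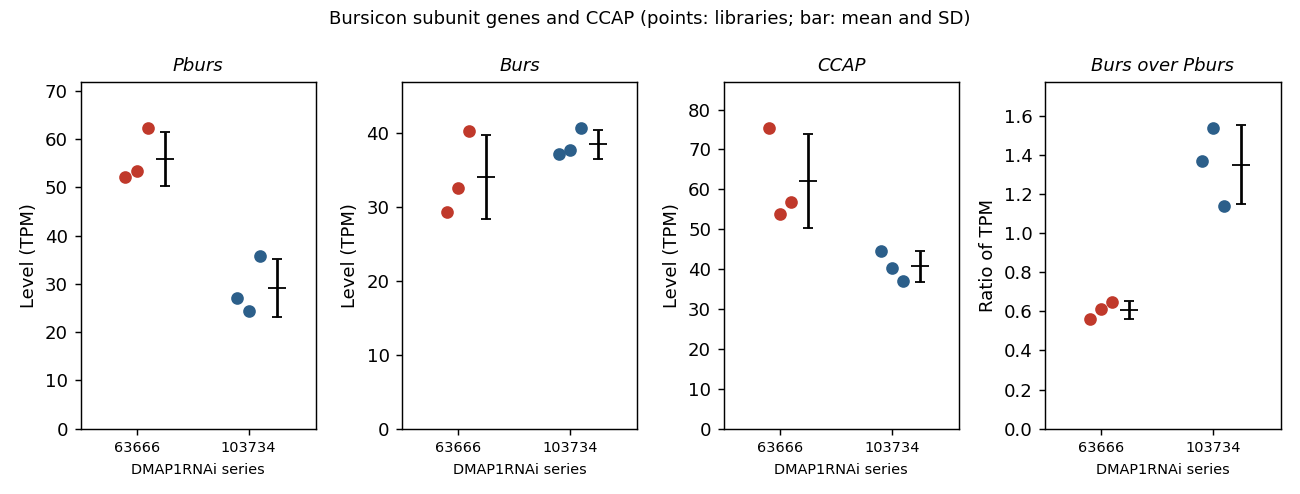
Levels of Pburs, Burs and CCAP in TPM and the ratio of Burs to Pburs, with 1 point per library and the mean and SD of 3 libraries beside them, DMAP1RNAi63666 (red) left of DMAP1RNAi103734 (blue). Pburs and CCAP lie higher in DMAP1RNAi63666 with no overlap, Burs overlaps between the series, and the ratio lies under 0.7 in DMAP1RNAi63666 and over 1.1 in DMAP1RNAi103734.

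Among the hormones of water and salt balance, Dh44 and ITP were the members nearest to the threshold after Pburs. Dh44 (FBgn0012344), a diuretic hormone related to vertebrate corticotropin-releasing factor, had 267, 269 and 248 TPM in DMAP1RNAi63666 and 199, 161 and 193 TPM in DMAP1RNAi103734. The DMAP1RNAi63666 libraries lay close together and above all others (261 ± 11.6 TPM in DMAP1RNAi63666 and 184 ± 20.3 TPM in DMAP1RNAi103734, SD, n = 3 each). The log2 fold change of 0.55 (SE 0.11) had an edgeR adjusted p of 0.0515. ITP (FBgn0035023), which encodes the antidiuretic ion transport peptide, had 166, 151 and 133 TPM in DMAP1RNAi63666 and 109.5, 91.3 and 102 TPM in DMAP1RNAi103734. Again the series did not overlap, with a log2 fold change of 0.62 (SE 0.13, edgeR adjusted p = 0.0601). The gene has 5 annotated transcripts with coding lengths from 108 to 119 residues, and the deposited gene counts do not separate them. Its exons share 296 bases with CG4622 on the opposite strand. Dh44 and ITP both passed the threshold under DESeq2 and with no filter on low counts. These settings called 959 and 215 genes in all, against 158 in edgeR's test with the filter.

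The other genes of this group overlapped between the series. Dh31, a diuretic hormone related to calcitonin, had 339, 316 and 257 TPM in DMAP1RNAi63666 and 307, 239.5 and 309 TPM in DMAP1RNAi103734. Its log2 fold change was 0.14 (95% interval -0.2 to 0.48), and the ratio of Dh44 to Dh31 was 0.79, 0.85 and 0.96 in DMAP1RNAi63666 and 0.65, 0.67 and 0.62 in DMAP1RNAi103734. Capa, whose precursor yields CAPA peptides that act on the Malpighian tubules, had 181, 229.6 and 189 TPM in DMAP1RNAi63666 and 220.1, 199.9 and 263 TPM in DMAP1RNAi103734. Lk, which encodes leucokinin, a peptide that stimulates fluid secretion, had 72.6, 134 and 109.7 TPM in DMAP1RNAi63666 and 129, 119 and 168 TPM in DMAP1RNAi103734. In TPM, library 1 of DMAP1RNAi63666 was the lowest of all for both genes. Neither passed the test, with log2 fold changes of -0.15 for Capa and -0.35 for Lk. The exon of Lk shares 582 bases with asRNA:CR44843 on the opposite strand, which had a mean of 45.8 counts against 1131.5 for Lk.

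Genes for peptides of feeding, satiety and growth ranged from 12.9 TPM for Ptth to 253 TPM for NPF on average. Dsk, which encodes the cholecystokinin-like sulfakinins that act in satiety, had 276, 246 and 228 TPM in DMAP1RNAi63666 and 214, 196 and 199 TPM in DMAP1RNAi103734. No library of DMAP1RNAi103734 reached the lowest of DMAP1RNAi63666, although the log2 fold change of 0.35 (SE 0.11) missed the threshold at an edgeR adjusted p of 0.136. sNPF, short neuropeptide F, a promoter of feeding and growth, had 277, 248 and 199 TPM in DMAP1RNAi63666 and 202, 147 and 203 TPM in DMAP1RNAi103734. Library 3 of DMAP1RNAi63666 lay within the range of DMAP1RNAi103734, so the series overlapped (log2 fold change 0.44, edgeR adjusted p = 0.173). NPF, the fly relative of neuropeptide Y, had 262, 308 and 204 TPM in DMAP1RNAi63666 and 262, 215 and 264 TPM in DMAP1RNAi103734. Both its highest and its lowest value belonged to DMAP1RNAi63666, and its log2 fold change was 0.11 (95% interval -0.26 to 0.49).

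Hug, the hugin precursor of a feeding-regulating pyrokinin, had 199, 254 and 265 TPM in DMAP1RNAi63666 and 269, 276 and 247 TPM in DMAP1RNAi103734. Library 1 of DMAP1RNAi63666 stood lowest and the other libraries lay between 247 and 276 TPM. AstA, allatostatin A, an inhibitor of feeding, had 110.4, 101 and 99.8 TPM in DMAP1RNAi63666 and 104.39, 81.9 and 108 TPM in DMAP1RNAi103734. Library 2 of DMAP1RNAi103734 was low and the rest lay close together. CCHa2, a nutrient-dependent peptide that acts on insulin-producing cells, had 50.9, 45.5 and 33.5 TPM in DMAP1RNAi63666 and 42.2, 32.9 and 40.8 TPM in DMAP1RNAi103734. CCHa1, a related peptide, had 17.7, 14.3 and 10.1 TPM in DMAP1RNAi63666 and 16.3, 8.57 and 12.9 TPM in DMAP1RNAi103734. It was the member with the largest spread within a series, with a pooled SD of 0.45 in log2 CPM, and its interval of -0.47 to 0.89 for the log2 fold change was wide. None of these 4 genes passed the test. Ptth, the prothoracicotropic hormone that drives ecdysone synthesis in the ring gland, had 11.8, 16.2 and 15.6 TPM in DMAP1RNAi63666 and 9.97, 12.04 and 11.9 TPM in DMAP1RNAi103734. After TMM scaling its series did not overlap, but in TPM library 1 of DMAP1RNAi63666 lay just under the highest DMAP1RNAi103734 library (log2 fold change 0.40, edgeR adjusted p = 0.187).

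Among the peptides best known for effects on muscle and on hormone-secreting tissue, only AstC separated between the series. AstC, allatostatin C, a peptide with inhibitory effects on secretion and muscle, had 194, 146 and 127 TPM in DMAP1RNAi63666 and 124, 98.0 and 126 TPM in DMAP1RNAi103734. The gap between the series was narrow, at 127 TPM against 126 TPM, and the log2 fold change of 0.48 (SE 0.18) had an edgeR adjusted p of 0.166. Proc (FBgn0045038, chromosome 2L, 7864642 to 7871432, minus strand) had 710.5, 714 and 580.5 TPM in DMAP1RNAi63666 and 625, 507 and 663 TPM in DMAP1RNAi103734. The series overlapped, and the lowest value was that of library 2 of DMAP1RNAi103734. Its log2 fold change was 0.21 (95% interval -0.13 to 0.54). Ms, myosuppressin, which inhibits contraction of gut and heart, had 387, 302 and 366 TPM in DMAP1RNAi63666 and 329, 313 and 321 TPM in DMAP1RNAi103734. Within DMAP1RNAi103734 these values were nearly equal, with an SD of 8.02 TPM, whereas within DMAP1RNAi63666 the SD was 44.0 TPM.

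FMRFa, the precursor of the FMRFamides, which strengthen muscle contraction, had 108, 182 and 132 TPM in DMAP1RNAi63666 and 177, 159 and 184 TPM in DMAP1RNAi103734. Here libraries 1 and 3 of DMAP1RNAi63666 were low while library 2 lay with the DMAP1RNAi103734 libraries, and the difference did not pass the test (log2 fold change -0.26, edgeR adjusted p = 0.361). Mip, the myoinhibiting peptide precursor, also called allatostatin B, had 121, 120.1 and 107 TPM in DMAP1RNAi63666 and 113, 94.8 and 119 TPM in DMAP1RNAi103734. Tk, the tachykinin precursor, had 49.8, 44.4 and 39.6 TPM in DMAP1RNAi63666 and 47.7, 33.1 and 44.2 TPM in DMAP1RNAi103734. Both overlapped, with log2 fold changes of 0.14 and 0.15, and in each the lowest library was number 2 of DMAP1RNAi103734.

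Of the peptides linked to daily rhythm, sleep, stress and memory, none passed the test. Pdf, pigment-dispersing factor, the output signal of clock neurons, had 162, 185 and 199.8 TPM in DMAP1RNAi63666 and 207, 183 and 237 TPM in DMAP1RNAi103734. Crz, corazonin, a stress peptide related to gonadotropin-releasing hormone, had 174, 242 and 211 TPM in DMAP1RNAi63666 and 183, 185 and 217 TPM in DMAP1RNAi103734. Both overlapped between the series. SIFa, made by a few cells of the pars intercerebralis and involved in sleep and courtship, had 52.8, 90.6 and 105 TPM in DMAP1RNAi63666 and 100.1, 129 and 107 TPM in DMAP1RNAi103734. Library 1 of DMAP1RNAi63666 was far lower than all others, and the log2 fold change of -0.40 (SE 0.22) had an edgeR adjusted p of 0.281. The exons of SIFa share 111 bases with Start1 on the opposite strand, which had a mean of 1523.2 counts against 764.0 for SIFa. Nplp1, the precursor of several amidated peptides, had 315, 341 and 288 TPM in DMAP1RNAi63666 and 362, 329 and 379.7 TPM in DMAP1RNAi103734. It had the smallest spread within a series, with a pooled SD of 0.13 in log2 CPM. Orcokinin had 83.96, 99.8 and 103.62 TPM in DMAP1RNAi63666 and 94.5, 76.0 and 128 TPM in DMAP1RNAi103734, with the highest and the lowest value both in DMAP1RNAi103734 and a log2 fold change of -0.01 (95% interval -0.41 to 0.38).

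The remaining members were near the limit of detection. RYa, the RYamide precursor, had 10, 13 and 13 counts in the DMAP1RNAi63666 libraries and 6, 4 and 3 counts in the DMAP1RNAi103734 libraries, or 1.82, 2.06 and 1.96 TPM in DMAP1RNAi63666 and 0.97, 0.62 and 0.49 TPM in DMAP1RNAi103734. The series did not overlap, and the log2 fold change of 1.5 was the largest of the 30, but with an SE of 0.41 its edgeR adjusted p was 0.112. amn, the amnesiac gene of memory formation, had 15, 26 and 20 counts in DMAP1RNAi63666 and 23, 31 and 30 counts in DMAP1RNAi103734. Its exon shares 140 bases with Hers on the opposite strand, a gene with a mean of 6150.7 counts, so the low counts of amn are uncertain even with strand-specific counting. Smaller overlaps with opposite-strand exons were those of CCAP (78 bases with CG6972) and Ptth (24 bases with cold).

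By median, the neuropeptide genes varied more between libraries of the same series than other genes did. Their median SD within a series was 0.21 in log2 CPM, against 0.17 over all genes tested and 0.13 over the 3239 tested genes whose abundance lay between the quartiles of the members. This is a description without a test. Their extremes after TMM scaling gathered in 2 libraries. Library 1 of DMAP1RNAi63666 held the highest value for 14 members and the lowest for 7, namely Pdf, FMRFa, Burs, Lk, Hug, SIFa and amn. Library 2 of DMAP1RNAi103734 held the lowest value for 13 members and the highest for 3. Without these libraries, a setting chosen after the data were seen, 14 members in place of 20 had a log2 fold change above 0. No member then passed the threshold, and Pburs had an edgeR adjusted p of 0.104.

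**Figure D4:**
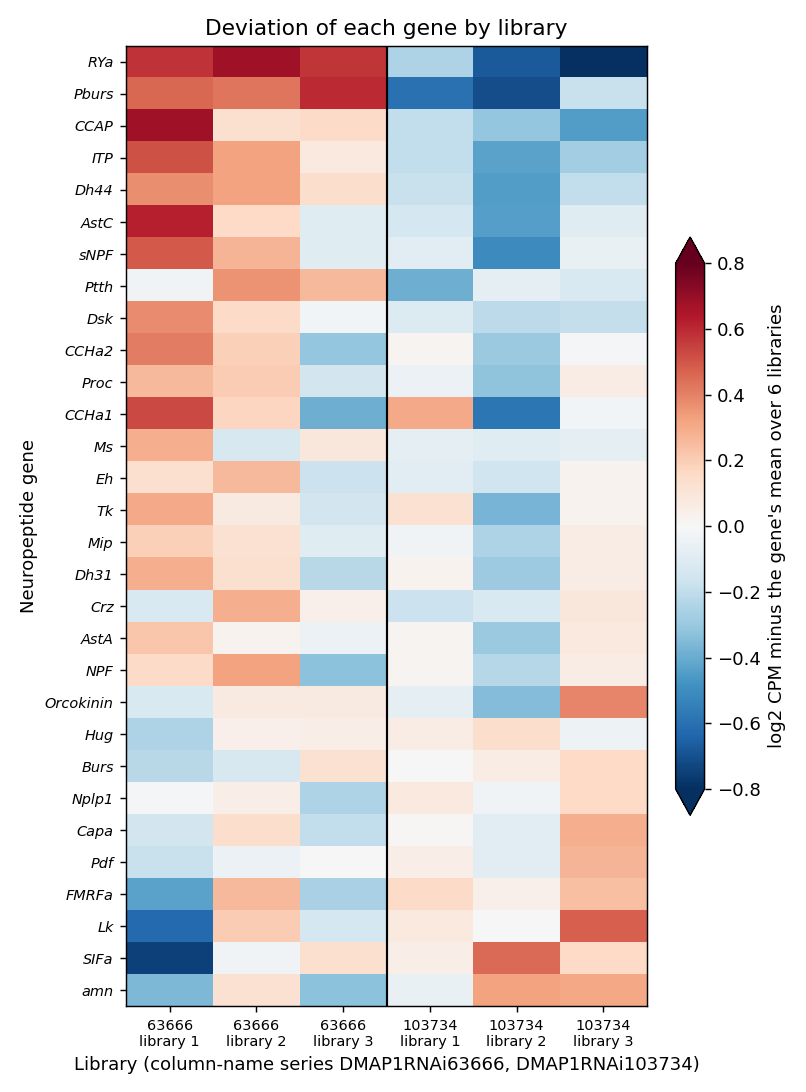
Deviation of each neuropeptide gene (rows, ordered by log2 fold change) in each library (columns, DMAP1RNAi63666 left of the line, DMAP1RNAi103734 right) from its own mean over 6 libraries, in log2 CPM. Library 1 of DMAP1RNAi63666 is red for most genes and blue for the others, most strongly for SIFa, Lk and FMRFa. Library 2 of DMAP1RNAi103734 is blue for most genes.

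Sums over several marker lists also had their extremes in these libraries. The summed level of the 6 neuronal markers elav, nSyb, Syt1, brp, cpx and Syx1A was 2115.6, 1631.8 and 1598.4 TPM in DMAP1RNAi63666 and 1679.1, 1269.9 and 1567.7 TPM in DMAP1RNAi103734. It was thus highest in library 1 of DMAP1RNAi63666 and lowest in library 2 of DMAP1RNAi103734. The 4 Hox genes of the ventral nerve cord summed to 136.8, 97.0 and 106.0 TPM in DMAP1RNAi63666 and 112.8, 87.6 and 109.8 TPM in DMAP1RNAi103734. The 6 glial markers summed to 4749.7, 4156 and 4490.5 TPM in DMAP1RNAi63666 and 4121.7, 3853.7 and 4188.6 TPM in DMAP1RNAi103734. The neuronal, Hox and glial sums all had their highest and lowest values in the same libraries. Of the glial genes, alrm, Eaat1 and nrv2 had both extremes there, but Gs2, moody and repo did not. The level of repo was 42.88 TPM in library 1 of DMAP1RNAi63666 and 59.55 TPM in library 2 of DMAP1RNAi103734. The ring gland sum, by contrast, was lowest in library 1 of DMAP1RNAi63666 (281.8, 382.5 and 455.7 TPM in DMAP1RNAi63666, 316.8, 409.5 and 321.3 TPM in DMAP1RNAi103734). Akh, phtm, sad and jhamt were lowest there, while dib, nvd and spok were not. The fat body sum was highest in library 2 of DMAP1RNAi103734, at 724.7 TPM against 221.3 to 386.4 TPM in the other libraries. Among its genes, apolpp was instead highest in library 3 of DMAP1RNAi63666. These are differences in marker levels, in which tissue content and RNA per cell cannot be told apart. Their part in the neuropeptide values was not tested. As a description, each member was set against the mean log2 TPM of the 6 neuronal markers in the same library. The difference between the series was then above 0 for 9 members and below 0 for 21, with a median of -0.12. On this scale 5 members separated higher in DMAP1RNAi63666 (Dh44, CCAP, Pburs, ITP and RYa) and 2 lower (Nplp1 and Pdf). No share over all genes was computed on this scale, so these counts are not read as a result about the members. RYa, among the 5, passed the filter on low counts only through the DMAP1RNAi63666 libraries.

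None of the receptors, processing enzymes, secretion genes and transcription factors of the pathway was called in edgeR's test at adjusted p 0.05, a threshold that 1.55% of all genes passed. An unadjusted p under 0.05 was found for 24.6% of all genes tested, and DESeq2 called 959 genes. For lists of this size a count of 0 is near the share of all genes called. Of 32 receptor genes tested, 0 were called, 6 had an unadjusted p under 0.05, and DESeq2 called 1, Proc-R. Their median log2 fold change was 0.05, and 20 of the 32 lay above 0, against 50.1% of all genes tested. Proc-R, the proctolin receptor, was the most abundant receptor by mean level, with 79.9, 60.0 and 83.4 TPM in DMAP1RNAi63666 and 52.6, 47.0 and 51.7 TPM in DMAP1RNAi103734. The series did not overlap, at a log2 fold change of 0.61 (SE 0.13, edgeR adjusted p = 0.0693). Dh44-R2, a receptor for Dh44 peptide, followed with 41.5, 40.2 and 43.3 TPM in DMAP1RNAi63666 and 51.3, 47.6 and 48.5 TPM in DMAP1RNAi103734 (log2 fold change -0.19, edgeR adjusted p = 0.179). So Dh44 and its more abundant receptor gene lay on opposite sides of 0, while Proc and Proc-R both lay above it, and of these 4 genes none passed the test. Dh31-R, the Dh31 receptor, came next at 33.9 TPM over the 6 libraries.

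Of 8 processing enzyme genes edgeR called 0, with 2 at an unadjusted p under 0.05, and DESeq2 called 0. The amidating lyase gene Pal2 led them at 323 TPM over the 6 libraries, followed by the prohormone convertase gene amon at 182 TPM and the amidating monooxygenase gene Phm at 172 TPM. Of 10 genes for dense-core vesicles and their release edgeR called 0, with 0 at an unadjusted p under 0.05, and DESeq2 called 0. IA-2, a dense-core vesicle protein of the phosphatase family, had 1162 TPM over the 6 libraries, more than any neuropeptide gene. Rab3, a vesicle GTPase, had 385.5 TPM and the vesicle-transporting kinesin unc-104 had 373.5 TPM. Of 7 transcription factors that act in peptidergic neurons edgeR called 0, with 0 at an unadjusted p under 0.05, and DESeq2 called 0. kn had 44.5, dac 37.6 and ap 29.1 TPM over the 6 libraries, and dimm, which directs the secretory programme of peptidergic cells, had 4.07 TPM.

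Neuropeptide messages were as a rule far more abundant than those of their receptors. For 25 members a receptor stood in the list, and for 22 of them the peptide gene exceeded its summed receptor genes in TPM in all 6 libraries. Over all 25 the median ratio was 6.99. The widest gap was that of Pdf, at 180.68 to 275.98 times its receptor gene Pdfr, which had 0.876 TPM on average. Capa came next, at 26.7 to 57.7 times the sum of CapaR and PK1-R. The exceptions were Tk, which exceeded TkR99D and TkR86C together in 2 of 6 libraries, CCHa1, which exceeded CCHa1-R in 2 of 6, and RYa, which exceeded RYa-R in 0 of 6. These ratios compare messages in the whole brain and not the cells that hold them.

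**Figure D5:**
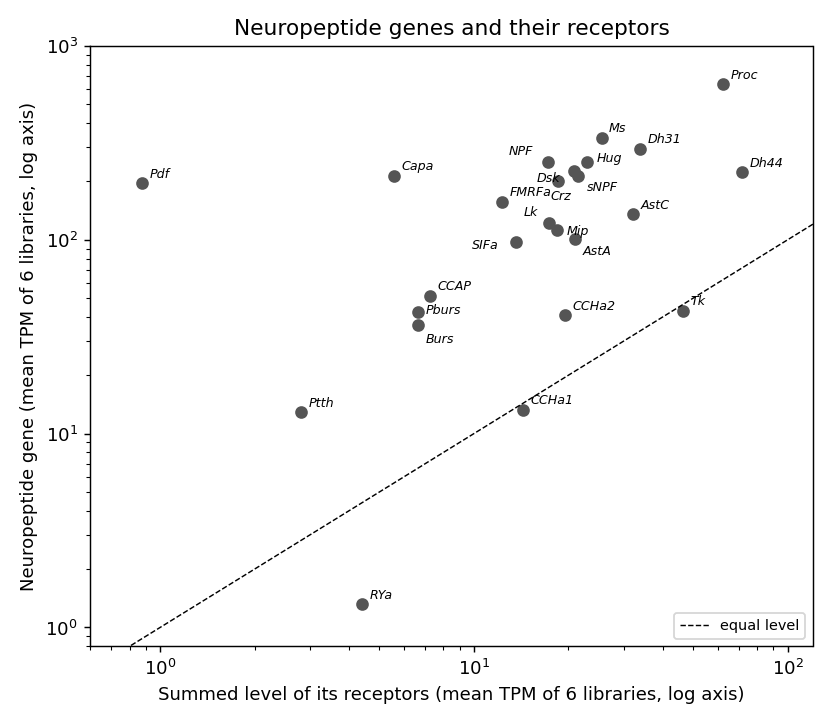
Mean level of each neuropeptide gene with a listed receptor (vertical log axis, TPM) against the summed mean level of its receptor genes (horizontal log axis, TPM), 1 point per peptide gene over 6 libraries, with a dashed line of equal level. Of the 25 points, 22 lie above the line, Pdf lies farthest from it, Tk and CCHa1 lie close to it, and RYa lies below.

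In the Ensembl release 115 annotation most members had short coding sequences, a trait that the choice of symbols did not use. The longest coding sequence of a member had a median of 151 residues, against 391 residues over 13986 protein-coding genes, and ranged from 72 residues in SIFa to 487 residues in Nplp1. Of the 30 genes, 23 encoded fewer than 200 residues, against 22.5% of all protein-coding genes. Pdf, Lk, amn, Dsk and RYa consisted of 1 exon, 7 members had 1 coding exon, and 15 had 1 annotated transcript. Shares over all genes were not computed for these exon and transcript counts. By chromosome arm, 15 members lay on 3R, 6 each on 2L and 2R, 2 on 3L and 1 on X. The share of all genes on each arm was not computed. The closest neighbours, ITP and SIFa on 2R, lay 18604 bases apart and had log2 fold changes of 0.62 and -0.40. The next closest, CCHa1 and Crz on 3R, lay 218018 bases apart. Burs and Pburs, which encode partners of 1 hormone, lie on different chromosomes, 3R and 2L.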

How the data were processed

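RNA was taken with an RNeasy kit and made into TruSeq libraries of polyadenylated RNA (labels' protocols). The authors deposited raw counts per gene, made with featureCounts 1.6.5 with a strand option on a BDGP6 annotation of release 84, per the file headers. Alignment settings are not given in the sources used. DESeq2 is also named in the submitters' processing notes. The deposited table also holds 3 columns of per-sample counts named as wild type. No labelled sample used here matches them, so they were not analysed here.

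Of the 17490 rows, 17216 were named by identifier in Ensembl release 115, 207 by exon overlap of at least 0.8, and 67 kept their identifier. TPM and CPM were computed from the deposited counts and gene lengths. The column-name series were compared by edgeR 4.0.16 (R 4.3.3), with TMM factors from 0.915 to 1.039 and at least 10 counts in about 3 libraries or more, over 10211 genes with Benjamini-Hochberg adjustment. The common biological coefficient of variation was 15.2%. On simulated data for this comparison, over 10211 genes, 72 of 100 changes of 1 and 94 of 100 changes of 2 on the log2 scale were recovered, with 8 of 10011 unchanged genes called. Every pair of libraries differed beyond sampling noise (chi-square over degrees of freedom of 22.9 or more). Alternatives were RLE scaling, no TMM scaling, DESeq2 1.42.0, limma-voom (limma 3.58.1), no filter, a replicate block and leaving out libraries. The members, the receptor, enzyme, vesicle, transcription factor and marker lists and the tests were chosen with earlier results of these data known. All 30 members are named, and of each pathway list the 3 genes of highest mean TPM; rk, CCAP-R, Pdfr, dimm, ETH and the receptors in the ratios were named outside this rule, after their values were seen. No sequences are printed.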

Additional observations from a re-analysis of the deposited data

Results flagged for a closer look

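Among 41 values examined for a single library far from the other 5 (the levels of the members, sums over the members and over marker lists), 2 stood out, and chance alone marks about 1 in 20. AstA had its lowest level, 81.86 TPM, in library 2 of DMAP1RNAi103734, against 99.8 to 110.4 TPM in the other libraries. The summed level of the fat body markers was highest in the same library, at 724.7 TPM, against 221.3 to 386.4 TPM in the others. Whether these are linked was not tested.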

How the results depend on the processing

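The count of genes called between the series was 158 and became 959 under DESeq2, 278 with a replicate block and 215 with no filter. It was 92 without library 1 of DMAP1RNAi63666 and library 2 of DMAP1RNAi103734, a setting chosen after the data were seen. It was 75 to 513 when 1 library was left out, with 513 without library 2 of DMAP1RNAi63666. Called neuropeptide genes numbered 1 at first, 0 without TMM scaling, 4 under DESeq2 and 4 with the replicate block (Dh44, CCAP, ITP and Pburs), 3 with no filter (Dh44, ITP and Pburs), 0 without both named libraries, and 0 to 1 when 1 library was left out, where ITP replaced Pburs without library 3 of DMAP1RNAi63666. Pathway genes called numbered 0 at first and 1, Proc-R, under DESeq2, with no filter and with the block, and 0 to 1 when 1 library was left out. The block used the number in the column name. Same-numbered libraries deviated from the means of their series with correlations of 0.24, -0.21 and -0.26, which differ in sign. With 3 libraries per series these values cannot decide whether the numbers pair the libraries. With the block the call of DMAP1 was lost as well (adjusted p = 0.0507).

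Of 416 fitted log2 fold changes under alternatives, 373 kept their direction and side of the threshold and 15 reversed. Orcokinin was 0.02 under limma-voom and 0.01 with the block. The other reversals came from leaving out 1 library or both named libraries. Over these settings log2 fold changes ran from -0.03 to 0.28 for NPF, -0.24 to 0.43 for CCHa1, -0.17 to 0.21 for Orcokinin, -0.08 to 0.27 for Dh31, -0.0076 to 0.22 for Mip, -0.06 to 0.21 for AstA, -0.11 to 0.25 for Tk, -0.05 to 0.39 for CCHa2 and -0.15 to 0.03 for Hug. The cause was not tested. The levels moved by less than 1 SD in 210 of 210 alternatives. Most of these alternatives left out 1 library, which cannot move a mean by 1 SD of the same values. The rest only applied TMM factors, which ran from 0.915 to 1.039. No conclusion on the stability of the levels is therefore drawn from this count. The order of the members did depend on gene length: with CPM in place of TPM, 27 of 30 ranks moved by at least their SD over the libraries, and ITP ranked 3 by CPM and 15 by TPM, Dsk 18 and 7, and NPF 12 and 5. Without TMM scaling the median of all genes shifted by -0.07. Depth limits RYa and amn, which had 3 to 31 counts per library.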
